A study of Mus musculus with 32 samples.

Results

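Itm2a, Fhl1, Timp1 and Tspan7 are 4 X-linked genes, taken from 1006 listed in the deposited tables, that were chosen by name because earlier results of these data showed them to vary on the active X chromosome. RNA was measured in mouse XEN cells, stem cells of the extraembryonic endoderm, from a 129S1/SvImj X JF1/Ms cross, in which strain differences let the authors split expression between the active X (Xa) and the inactive X (Xi). The 12 groups comprised 4 XistpA, 2 XRR_KO (1 from each of 2 clones), 3 XRRa_KO and 3 WT samples. They further comprised 2 samples each of XRRb_XiKO, XRRb_XaKO, XRRc_XiKO and XRRc_XaKO, 4 each of Rad21 degron cells with dTAG or DMSO (from 2 clones), and 2 each of Ctcf degron cells with dTAG or DMSO for 48 h. The labels do not spell out XistpA or the XRR names, nor say on which allele the XRR_KO and XRRa_KO changes lie, and Xi or Xa in a group's name was read as the allele deleted. dTAG is the compound that removes a degron-tagged protein, here the cohesin subunit Rad21 or the insulator protein Ctcf, and the DMSO cells carried the same degron.

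Cells of a female mouse transcribe most X-linked genes from Xa alone, because the RNA Xist silences the other copy. Extraembryonic endoderm is the lineage that forms yolk sac endoderm and secretes basement membrane. Itm2a encodes a membrane protein with a BRICHOS domain that is known from cartilage, muscle and T cell differentiation. Fhl1 encodes a LIM-domain protein of muscle, and its mutations cause X-linked myopathies. Timp1 encodes a secreted inhibitor of matrix metalloproteinases, and Tspan7 encodes a tetraspanin of the cell surface that is mutated in some X-linked intellectual disability.

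Each group has a single Xa and a single Xi FPKM value per gene (fragments scaled by transcript length and library size), merged by the authors over its samples. No value below therefore carries an SD or a p-value, the sequencing depth is unknown, and whether a difference exceeds the spread between replicates could not be measured. Because RNA came from whole cultures, fewer expressing cells and less RNA per cell cannot be told apart. "Rose" and "fell" are used for a difference of 1 or more in log2(FPKM + 0.5), called the size rule, and this scale makes changes of low genes look smaller than they are. The knockout table holds XistpA, XRR_KO, XRRa_KO and WT, a further table holds the XRRb and XRRc groups, and the Rad21 pair and the Ctcf pair each have their own, so levels were compared within a table only. Genes whose Xa plus Xi FPKM averaged at least 1 in a table were counted as tested there, which was 270, 261, 247 and 277 genes in that order of tables. Fhl1 and Tspan7 were tested in all tables, Timp1 in the knockout and Ctcf tables, and Itm2a in all but the Ctcf table. In 2 tables Itm2a was counted as tested only through the group where it was highest. These were the knockout table (3.68 FPKM in XRR_KO, at most 1.23 FPKM elsewhere) and the Rad21 table (8.45 FPKM with dTAG, 0.958 FPKM with DMSO). Its counts and ranks there depend on those high values.

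The promoters of the 4 genes differ in their CG content. They are shown because Itm2a, Timp1 and Tspan7 fell together in XistpA cells while Fhl1 (log2 change -0.35) did not pass the size rule there. A link between CG content and these changes was not tested. The windows run from 250 bases before to 50 bases after the start in RefSeq on GRCm38.p6, at chrX:107403311-107403610 on the minus strand for Itm2a, and on the plus strand at chrX:56779433-56779732 for Fhl1, chrX:20869916-20870215 for Timp1 and chrX:10484866-10485165 for Tspan7. Capitals mark CG dinucleotides.
Itm2a: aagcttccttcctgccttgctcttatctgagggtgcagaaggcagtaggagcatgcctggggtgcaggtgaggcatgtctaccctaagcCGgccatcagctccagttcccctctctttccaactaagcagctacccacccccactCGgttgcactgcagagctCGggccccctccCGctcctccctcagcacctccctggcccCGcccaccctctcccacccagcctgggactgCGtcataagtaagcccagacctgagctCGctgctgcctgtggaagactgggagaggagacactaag
Fhl1: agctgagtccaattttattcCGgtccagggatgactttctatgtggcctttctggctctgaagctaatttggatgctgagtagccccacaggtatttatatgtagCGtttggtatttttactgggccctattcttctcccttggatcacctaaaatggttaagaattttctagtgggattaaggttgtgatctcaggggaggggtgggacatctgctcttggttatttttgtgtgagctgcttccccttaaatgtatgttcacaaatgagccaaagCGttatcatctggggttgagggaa
Timp1: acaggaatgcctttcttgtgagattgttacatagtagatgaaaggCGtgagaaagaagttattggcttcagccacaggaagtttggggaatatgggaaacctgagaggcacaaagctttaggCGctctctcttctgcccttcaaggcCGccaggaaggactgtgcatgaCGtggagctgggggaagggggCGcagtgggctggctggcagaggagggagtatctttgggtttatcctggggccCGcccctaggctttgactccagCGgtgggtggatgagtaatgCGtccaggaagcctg
Tspan7: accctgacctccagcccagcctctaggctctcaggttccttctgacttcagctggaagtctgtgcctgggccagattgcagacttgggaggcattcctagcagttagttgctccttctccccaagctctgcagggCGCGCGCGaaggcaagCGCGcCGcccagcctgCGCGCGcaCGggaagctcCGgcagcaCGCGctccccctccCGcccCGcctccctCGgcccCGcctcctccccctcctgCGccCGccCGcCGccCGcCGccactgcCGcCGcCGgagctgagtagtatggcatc

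The Tspan7 window held 27 CG dinucleotides, more than 85.8% of the 325 windows of tested genes, whose median was 16. Itm2a had 7, Timp1 had 8 and Fhl1 had 3, all below the lower quartile of 9 of the tested genes. A further RefSeq start of Fhl1, at chrX:56786277-56786576 on the plus strand, also had 3. Both strands were searched for the GATA letters AGATAA, their variant AGATAG, likewise TGATAA, and finally TGATAG, of which at least 1 is in 26.2% of tested genes' windows. Itm2a and the first Fhl1 window had 1 match each, and Timp1 and Tspan7 had none. The SOX letters ACAATG or, as the alternative, ACAAAG, present in 21.2% of windows, matched 1 time in Timp1 and 2 times in the further Fhl1 window. The AP-1 letters TGANTCA (3.08% of windows) matched in no member. TATAAA (9.85% of windows) matched 1 time in the first Fhl1 window, on the opposite strand to the gene. A match describes letters only.

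On Xi the members were close to silent. Of their 48 Xi values, 44 were listed at 0 and the highest was 0.191 FPKM. That value was of Itm2a in XRR_KO cells, where it made up 4.93% of Xa plus Xi. Itm2a also had 0.0757 FPKM on Xi in XRRb_XiKO cells (11.3%), Fhl1 had 0.0442 FPKM there (0.127%), and Timp1 had 0.0120 FPKM in XistpA cells (0.968%). Tspan7 had an Xi value of 0 in each of the 12 groups. Xist itself was listed at 0 on Xi in XistpA cells, against 15.5 FPKM in WT cells, and stood at 1.18 FPKM in XRR_KO cells. Rad21 and Ctcf are not X-linked, so their own levels were not analysed here. Every further value is of Xa.

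**Figure D1:**
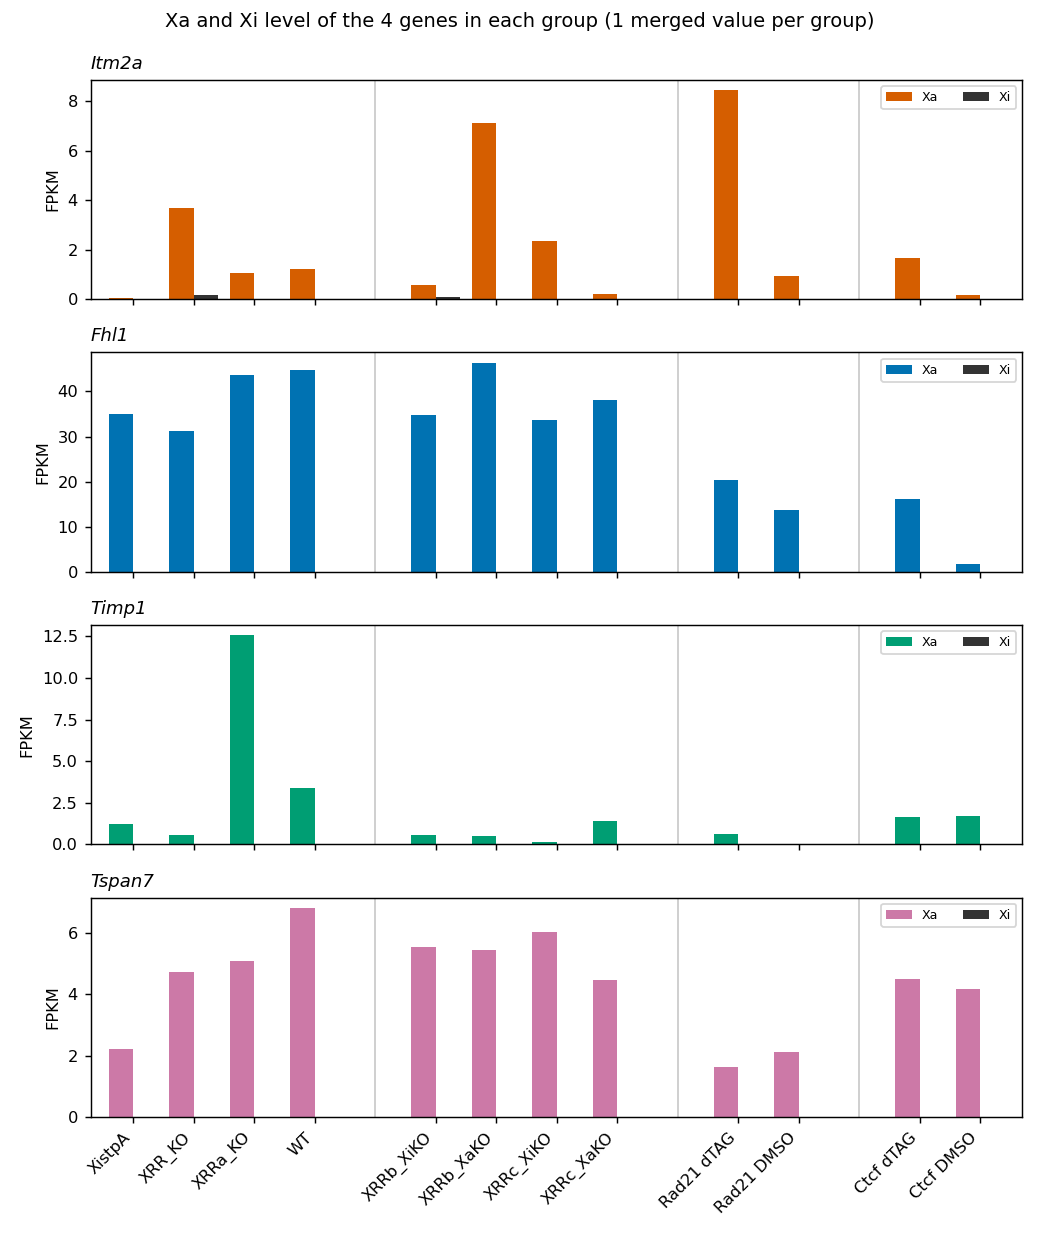
Xa (coloured bars) and Xi (dark bars) FPKM of each gene in the 12 groups, 1 merged value per bar, with vertical lines between tables that are not to be compared with each other. Itm2a spans 0.0699 to 8.45 FPKM, Timp1 peaks at 12.6 FPKM in XRRa_KO, Fhl1 is low at 1.65 FPKM in Ctcf DMSO, and Xi bars are at or near 0.

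Itm2a passed the size rule in 8 of the 9 comparisons, 6 times higher and 2 times lower. In 1 of the 8, the Ctcf pair, it was not counted as tested. Of the 233 genes tested in all tables, 157 never passed and 66 passed 1 time. In the knockout table its Xa level was 0.0699 FPKM in XistpA, 3.68 in XRR_KO, 1.05 in XRRa_KO and 1.23 FPKM in WT cells. XRR_KO was the highest group, XRRa_KO and WT lay close together, and XistpA was almost at 0. Itm2a fell in XistpA cells relative to WT (log2 change -1.60) and rose in XRR_KO cells relative to WT (1.27) and to XRRa_KO (1.43). The median gene changed by -0.19 and -0.24 in these XRR_KO comparisons, and relative to that median the Itm2a rises were 1.46 and 1.67. Its change in XRRa_KO relative to WT was -0.16. The 3 comparisons with WT share the WT column. The XRR_KO, XRRa_KO, XRRb_XaKO and XRRc_XaKO columns also each enter more than 1 comparison, so the 9 are not separate results.

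In the XRRb and XRRc table Itm2a changed in opposite directions in the pairs. It had 0.592 FPKM in XRRb_XiKO cells, against 7.14 FPKM in XRRb_XaKO cells, a 12.1-fold lower level (log2 change -2.81). It had 2.37 FPKM in XRRc_XiKO cells, against 0.206 FPKM in XRRc_XaKO cells, an 11.5-fold higher level (2.02). The order was thus XRRb_XaKO, XRRc_XiKO, XRRb_XiKO and XRRc_XaKO, which does not follow whether Xi or Xa carried the deletion. The XaKO groups alone differed 34.7-fold, with 7.14 FPKM in XRRb_XaKO and 0.206 FPKM in XRRc_XaKO cells (3.44). That difference between cultures with Xa deletions was wider than either of the Xi against Xa differences, and only 1 of the 261 tested genes had a wider one.

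Itm2a rose with dTAG in both degron lines. It had 8.45 FPKM in Rad21 dTAG cells, against 0.958 FPKM in Rad21 DMSO cells, an 8.83-fold higher level (log2 change 2.62, or 2.88 relative to the median gene, which changed by -0.26). In the Ctcf table it had 1.68 FPKM in dTAG cells, against 0.152 FPKM in DMSO cells, an 11.1-fold higher level (1.74, or 1.51 relative to the median gene, which changed by 0.23). Its mean there was below the 1 FPKM needed to be counted as tested. The rank by size was 8th among 247 tested genes for Rad21, where Itm2a was counted as tested only through its dTAG value.

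Fhl1 had the highest mean Xa FPKM of the members in every table, and it passed the size rule in 1 comparison. It had 34.9 FPKM in XistpA, 31.2 in XRR_KO, 43.5 in XRRa_KO and 44.7 FPKM in WT cells. The widest of its 4 changes in that table was -0.51, for XRR_KO against WT, and the 4 levels lay within a factor of 1.43. It had 34.7 FPKM in XRRb_XiKO, 46.4 in XRRb_XaKO, 33.7 in XRRc_XiKO and 38.2 FPKM in XRRc_XaKO cells. Both XiKO groups were below their XaKO partners, by less than the size rule (-0.41 and -0.18). In the Rad21 pair it had 20.3 FPKM in dTAG cells and 13.7 FPKM in DMSO cells (0.56).

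In the Ctcf pair Fhl1 rose to 16.1 FPKM in dTAG cells, against 1.65 FPKM in DMSO cells, 9.74-fold higher (log2 change 2.95, or 2.71 relative to the median gene). This was the second largest change of 277 tested genes. Ranked within its own column, Fhl1 lay above 19.5% of tested genes in the Ctcf DMSO cells and above 69.2% to 82.2% of them in the other 11 groups, the Ctcf dTAG cells included. The ranks of different tables are over different sets of tested genes. Whether the DMSO or the dTAG value of the pair was the unusual one was not tested.

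Timp1 had the widest range of the members in the knockout table on the log2(FPKM + 0.5) scale, while Itm2a had the larger ratio of highest to lowest group (22.3 for Timp1 and 52.6 for Itm2a). It had 1.23 FPKM in XistpA, 0.563 in XRR_KO, 12.6 in XRRa_KO and 3.38 FPKM in WT cells. XRRa_KO was the highest and XRR_KO the lowest group, on either side of WT. Timp1 rose in XRRa_KO cells relative to WT (log2 change 1.75) and fell in XRR_KO (-1.87) and XistpA cells (-1.17). XRR_KO was 22.3-fold below XRRa_KO (-3.62, or -3.38 relative to the median gene), the second largest change of 270 genes. In the other tables Timp1 was low. It had 0.539 FPKM in XRRb_XiKO and 0.512 FPKM in XRRb_XaKO cells (0.04), and 0.128 FPKM in XRRc_XiKO, against 1.42 FPKM in XRRc_XaKO cells (-1.61). XRRb_XaKO and XRRc_XaKO differed by -0.93, just short of the size rule. Timp1 had 0.633 FPKM in Rad21 dTAG cells and was listed at 0 in Rad21 DMSO cells, so no fold is given (1.18). In the Ctcf table it had 1.62 FPKM in dTAG cells and 1.72 FPKM in DMSO cells (-0.07).

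Tspan7 passed the size rule in 1 comparison, in XistpA cells. It had 2.21 FPKM in XistpA, 4.73 in XRR_KO, 5.10 in XRRa_KO and 6.82 FPKM in WT cells. XistpA was 3.08-fold below WT (log2 change -1.43), the fourth largest change of 270 genes, and the deletions lay between (-0.49 for XRR_KO and -0.39 for XRRa_KO against WT). The other tables gave smaller differences. Tspan7 had 5.56 FPKM in XRRb_XiKO and 5.43 FPKM in XRRb_XaKO cells, then 6.02 FPKM in XRRc_XiKO and 4.46 FPKM in XRRc_XaKO cells. It had 1.64 FPKM in Rad21 dTAG and 2.12 FPKM in Rad21 DMSO cells, and 4.49 FPKM in Ctcf dTAG and 4.17 FPKM in Ctcf DMSO cells. The largest of these 4 changes in size was 0.40, for XRRc_XiKO against XRRc_XaKO.

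**Figure D2:**
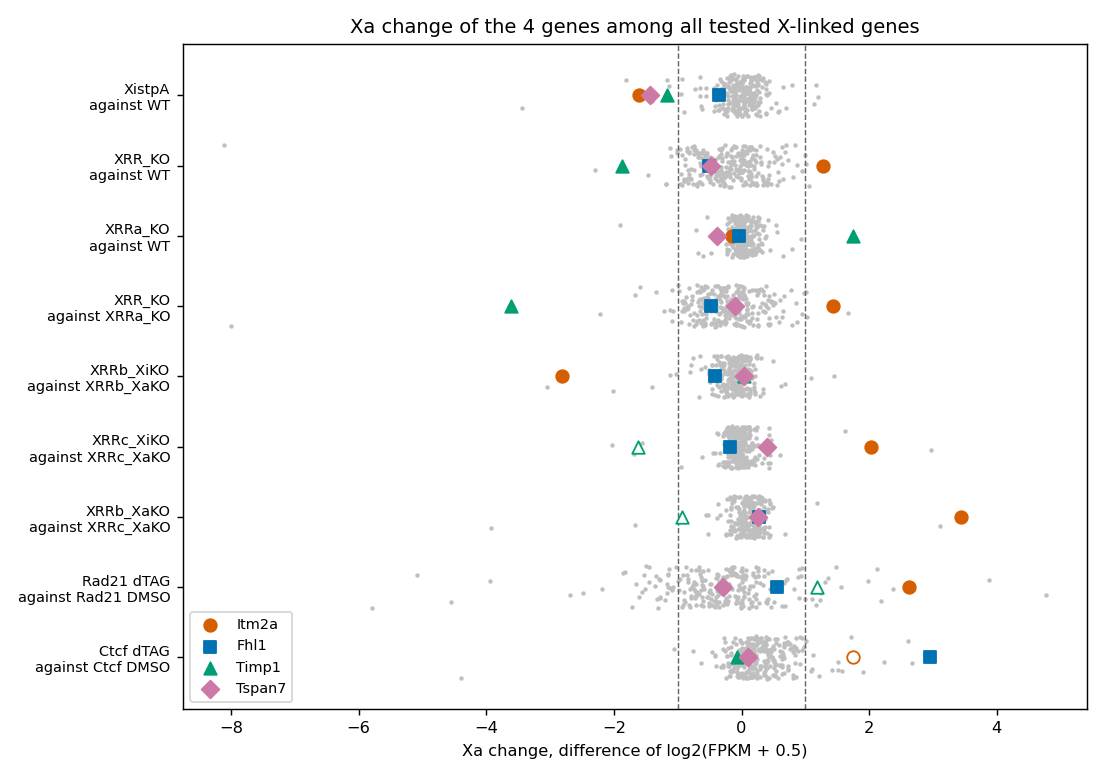
Xa change in each comparison, as the difference of log2(FPKM + 0.5), for the 4 genes (coloured, open where the gene was not counted as tested in that table) and all other tested X-linked genes (grey), with dashed lines at -1 and 1. Itm2a lies outside the lines in 8 of 9 comparisons, on both sides and open for Ctcf, and Fhl1 only for Ctcf (2.95). Of the 233 genes tested in all tables, 157 lie inside the lines in all 9.

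The members were chosen partly from these same contrasts, so their counts are set beside the share of all tested genes as a description. In XistpA against WT 3 of the 4 members passed the size rule, all lower, and 4.44% of tested genes did. In XRR_KO against WT 2 passed (4.81% of tested genes), in XRRa_KO against WT 1 passed (0.741%), and in XRR_KO against XRRa_KO 2 passed (5.56%). Among the 3 tested members 1 passed for XRRb_XiKO against XRRb_XaKO (3.07%), 1 for XRRc_XiKO against XRRc_XaKO (2.30%) and 1 for XRRb_XaKO against XRRc_XaKO (1.92%). One tested member also passed in each degron pair, Itm2a for Rad21 (21.5% of tested genes) and Fhl1 for Ctcf (6.14%). Itm2a was counted as tested in the knockout and Rad21 tables only through its highest group, so its place in those counts depends on that value. Timp1 in XRRc and Rad21, and Itm2a in Ctcf, passed without being counted as tested. Of the 233 genes tested in all tables, 157 never passed in the 9 comparisons and 66 passed 1 time, as Fhl1 and Tspan7 did.

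The range over the groups of a table was among the widest for Itm2a in each table. In the knockout table Timp1 had the second widest range of 270 tested genes (3.62 in log2), Itm2a the fifth (2.88) and Tspan7 the twelfth (1.43), while Fhl1 (0.51) lay near the median of 0.54. In the XRRb and XRRc table Itm2a had the second widest range of 261 genes (3.44), and in the Rad21 and Ctcf tables its ranges were 2.62 and 1.74. Fhl1 (0.45) and Tspan7 (0.40) lay above the median of 0.28 in the XRRb and XRRc table.

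**Figure D3:**
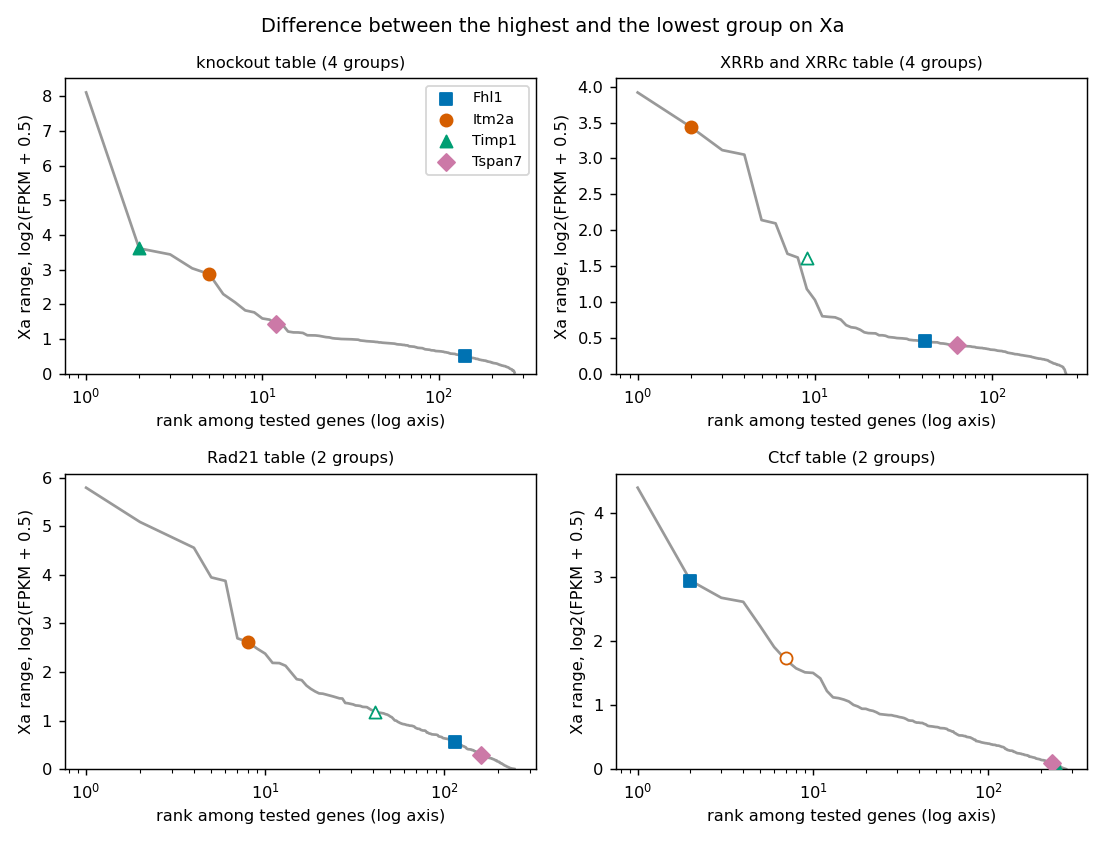
Range of Xa log2(FPKM + 0.5) between the highest and the lowest group of a table, for all tested genes in order of rank (grey line, log rank axis) and for the 4 genes (open where not counted as tested). Timp1 (3.62) and Itm2a (2.88) lie at the top of the knockout table, and Fhl1 (2.95) at the top of the Ctcf table.

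The 4 genes did not share 1 pattern. Over the 12 groups, with each table centred on its own mean, Pearson's r between members ran from -0.10 for Itm2a and Timp1 to 0.42 for Itm2a and Fhl1. The groups of a table share processing, and those r values are descriptions. The genes most like Itm2a were Magt1, a magnesium transport and glycosylation protein (r = 0.89), the formin gene Diap2 (0.83) and Chic1 (0.81). With the 2 groups farthest from the Itm2a median left out, XRRb_XaKO and XRRc_XaKO, these were 0.84, 0.77 and 0.84. Their changes were much smaller than those of Itm2a. Magt1 had 14.8 FPKM in Rad21 dTAG cells and 11.1 FPKM in Rad21 DMSO cells (log2 change 0.40).

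The likeness of other genes to Fhl1 rested on the Ctcf pair. The nearest were Pim2, a serine/threonine kinase (r = 0.96), Fam3a (0.96) and Pls3, an actin-bundling plastin (0.94), and without the Ctcf pair r was 0.52, 0.52 and 0.15 over 10 groups. Pim2 had 7.87 FPKM in Ctcf dTAG cells, against 1.73 FPKM in Ctcf DMSO cells (log2 change 1.91). Fam3a had 2.56 FPKM in Ctcf dTAG cells and was listed at 0 in Ctcf DMSO cells. Pls3 had 15.8 FPKM in Ctcf dTAG cells and 7.97 FPKM in Ctcf DMSO cells (0.94). Because the 3 genes were picked by an r that rested on this pair, a shared Ctcf difference was built into the choice. Each ranked lower among tested genes in the Ctcf DMSO column than in any of the other 11 groups. Pls3 still lay above 61.4% of tested genes there, and its change was short of the size rule.

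The genes nearest to Timp1 were Wbp5, of the Tceal family (r = 0.85), Maoa, a monoamine oxidase (0.78), and Sat1, a polyamine acetyltransferase (0.77). Without XRRa_KO and XRR_KO these were 0.43, 0.50 and 0.33. Wbp5 had 271 FPKM in XRR_KO cells, against 573 FPKM in XRRa_KO cells (log2 change -1.08), and Sat1 had 211 FPKM against 451 FPKM in the same groups (-1.10). Those nearest to Tspan7 were Rnf128, a ubiquitin ligase (r = 0.77), the zinc finger gene Zfp711 (0.65) and Ccdc120 (0.63). Without XistpA and WT these were 0.06, 0.19 and 0.48. Rnf128 had 0.594 FPKM in XistpA cells, against 3.34 FPKM in WT cells (-1.81).

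**Figure D4:**
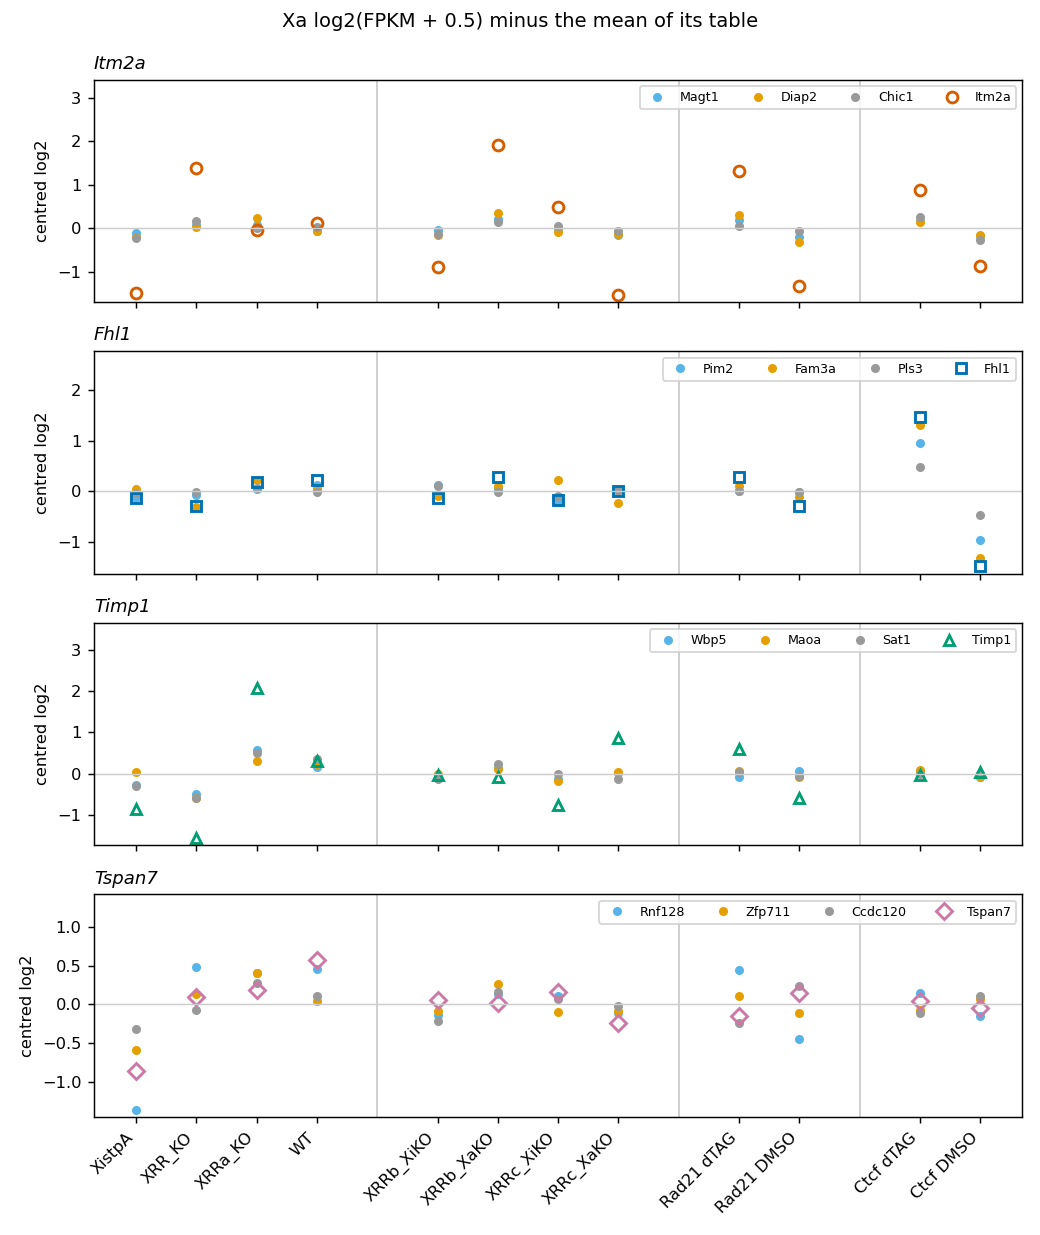
Xa log2(FPKM + 0.5) of each gene (open symbols) and of the 3 genes most correlated with it (filled dots) in the 12 groups, each minus its mean over the groups of the table, with vertical lines between tables. The genes near Itm2a move far less than Itm2a, and those near Fhl1 part from 0 mainly in the Ctcf pair.

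None of the neighbouring genes described here passed the size rule in more than 1 of the 9 comparisons. Next to Itm2a, 2610002M06Rik stayed within -0.40 to 0.52 in all 9 comparisons. Taf9b, a TFIID-related factor on the other side of Itm2a, fell in 1 comparison, with 0.00934 FPKM in XRRb_XiKO cells against 3.73 FPKM in XRRb_XaKO cells (log2 change -3.05), the same pair in which Itm2a fell. In the XRRc pair, where Itm2a rose, Taf9b had 3.52 FPKM in XRRc_XiKO cells and 3.16 FPKM in XRRc_XaKO cells (0.14). Next to Fhl1, the splicing and elongation factor gene Htatsf1 had 13.0 FPKM in Ctcf dTAG cells and 12.6 FPKM in Ctcf DMSO cells (0.05).

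Timp1 lies within Syn1, a synaptic vesicle gene on the opposite strand, and the libraries keep no strand. The annotated exons of the pair share 0 bases. Syn1 had between 0 and 0.210 FPKM in all groups, and it had 0.189 FPKM in XRRa_KO cells, where Timp1 was highest. The deubiquitinase gene Usp11, next to Timp1, passed the size rule in the Rad21 pair alone (1.83 FPKM in dTAG and 0.665 FPKM in DMSO cells, log2 change 1.00). The properdin gene Cfp, on the other side, passed in none of the 9, but it was counted as tested only in the Ctcf table. In the Rad21 pair Cfp had 0.959 FPKM in dTAG and 0.240 FPKM in DMSO cells (0.98), just short of the rule. Timp1, not counted as tested there, also rose in that pair (1.18). Of all tested genes, 21.5% passed in it. Next to Tspan7, the dynein light chain gene Dynlt3 rose in the Rad21 pair (13.3 FPKM in dTAG and 5.42 FPKM in DMSO cells, 1.22), where Tspan7 had -0.29, and Mid1ip1 passed in none. No member had a near-identical copy.

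Lists of X-linked genes with related roles were described in the same way. Of 18 genes for secreted and matrix proteins, 2 to 4 were tested in a table. Besides Timp1, this list held the glypican genes Gpc3 and Gpc4, which encode cell surface proteoglycans. In XRR_KO against XRRa_KO all 3 tested genes of the list fell, Timp1 among them, and 5.56% of all tested genes passed. The list's median change was -1.67, or -1.39 for the 2 genes other than Timp1, beside -0.24 for all tested genes. Against WT, Timp1 alone of the 3 passed, both in XRR_KO and in XRRa_KO cells. The median change of the other 2 was -0.79 and 0.60 in these comparisons. In the Rad21 and Ctcf pairs 0 of the list's tested genes passed. Gpc3 had 11.4 FPKM in XRR_KO cells, against 37.3 FPKM in XRRa_KO cells (log2 change -1.67), and Gpc4 had 1.82 FPKM against 4.52 FPKM (-1.11). Gpc3 and Timp1 also both fell in XistpA cells, where Gpc3 had 8.54 FPKM, against 19.4 FPKM in WT cells (-1.14).

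In the XRRb and XRRc table Gpc3 ran opposite to Itm2a. It had 20.0 FPKM in XRRb_XiKO cells, against 9.18 FPKM in XRRb_XaKO cells (log2 change 1.08). It had 10.02 FPKM in XRRc_XiKO cells, against 30.4 FPKM in XRRc_XaKO cells (-1.55). Where Itm2a was high, in XRRb_XaKO and XRRc_XiKO, Gpc3 was low. Gpc3 was set beside Itm2a after its values were seen. Of the 2 tested genes of the list, Gpc3 alone passed in each pair, and 3.07% and 2.30% of all tested genes did. The list's median changes were 0.16 in the XRRb pair and -1.25 in the XRRc pair. A link between Gpc3 and Itm2a was not tested.

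Of 9 four-transmembrane genes 2 were tested, and of these Tspan7 in XistpA alone passed the size rule. Tnmd, the other X-linked BRICHOS gene, was listed at 0 in all 12 groups. Of 9 genes of X-linked muscle disease 6 or 7 were tested, and besides Fhl1 only the nuclear envelope gene Emd passed, in 1 comparison, with 6.83 FPKM in Rad21 dTAG cells and a listed 0 in Rad21 DMSO cells. Of 17 actin cytoskeleton genes 6 were tested, and the phosphoinositide phosphatase gene Ocrl alone passed, with 0.573 FPKM in Ctcf dTAG cells and 1.73 FPKM in Ctcf DMSO cells (-1.06). Of 25 genes of X-linked intellectual disability 12 to 14 were tested. Besides Tspan7, Aff2 rose (1.56) and the tRNA methyltransferase gene Ftsj1 fell (-1.33), both in the Rad21 pair, where 14 of the list were tested and 21.5% of all tested genes passed. The same share stands beside Emd, and 6.14% stands beside Ocrl.

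The cell type label was checked as far as X-linked genes allow. Of 5 X-linked genes known from extraembryonic tissue, 4 were listed, and Rhox5 was not listed under that name. All 4 had at least 1 FPKM on Xa in every group, and their sum ran from 95.7 to 251 FPKM. The autosomal genes that define extraembryonic endoderm were not analysed here. Summed Xa FPKM ran from 0.0675 to 0.316 for 8 neuron genes and from 0.0904 to 0.517 for 6 mesenchyme genes. None of these genes had 1 FPKM in any group. The sum ran from 0.227 to 2.29 for the blood genes, of which 11 were listed in the Ctcf table and 9 in each other table. For 4 trophoblast genes it ran from 0.306 to 5.41. The germ cell list summed to 24.4 to 78.9 FPKM, most of it Xlr (19.1 to 73.8). The mesenchyme markers Tnmd, Srpx and Srpx2 were at 0 in all groups.

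Some markers moved in the same comparisons as the members. Xlr had 73.8 FPKM in XistpA cells, against 32.0 FPKM in WT cells (log2 change 1.19), where Itm2a, Timp1 and Tspan7 fell. It was the only 1 of the 2 tested germ cell genes to pass there, and 4.44% of all tested genes did. In the Rad21 pair 1 of 3 tested germ cell genes passed, Tsga8, with 1.75 FPKM in dTAG and 0.310 FPKM in DMSO cells (1.48). Cited1, a transcriptional coregulator on the extraembryonic list, had 12.7 FPKM in Rad21 dTAG cells, against 59.5 FPKM in Rad21 DMSO cells (-2.19), where Itm2a rose. Gpc3, on the same list, moved as given above. Other genes of that list did not follow. In XistpA against WT 1 of its 4 tested genes passed, the list's median change was 0.02, and Cited1 had 126 FPKM in XistpA and 115 FPKM in WT cells. In the Rad21 pair 1 of 4 passed (21.5% of all tested genes), with a median change of -0.74. Trap1a had 69.1 FPKM in dTAG and 60.8 FPKM in DMSO cells there. The part of these markers in the members' changes was not tested. A lineage meaning of the 4 genes could not be checked from X-linked rows, and they are described here by their names.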

How the data were processed

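Per the labels' protocols, polyadenylated RNA of 32 XEN samples was captured with oligo-dT and made into Smart-seq2 libraries, a method without strand information. The submitters' processing notes name mouse build mm9, StringTie 2.1.1, HISAT2 2.2.0 and Trim Galore 0.6.4. How reads were split by allele was not given in the sources used here. In this series the authors deposited 4 tables of FPKM, with 1 Xa and 1 Xi column per group per the headers. Their names call them merged, which was read as merged over the samples of a group. The planned per-sample tests could not be run, and depth is unknown.

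Changes are differences of log2(FPKM + 0.5), for genes averaging at least 1 FPKM (Xa plus Xi) in a table. Pseudocounts of 0.1 and 1, other filters and other scalings were alternatives. Named genes are the members, the 3 most correlated tested genes, the nearest tested gene on each side (1 is not reported here), Syn1, Xist, and up to 4 genes per list past the size rule. Tnmd, Srpx, Srpx2, Xlr and Cited1, and the setting of Gpc3 beside Itm2a, were picked after their values were seen. The members and lists were chosen with earlier results of these data known. Gene order (303 of 304 genes placed) and promoters came from RefSeq on GRCm38.p6, and copies were sought with minimap2 2.31 (95% identity over 50% of the length). The scripts, in Python 3.11.15 with pandas 2.3.3, numpy 2.4.6 and matplotlib 3.10.9, were tested on simulated data.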

Additional observations from a re-analysis of the deposited data

Results flagged for a closer look

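The Xa change of Itm2a between the XiKO and XaKO cells ran opposite ways for the XRRb and XRRc deletions. Itm2a had 0.592 FPKM in XRRb_XiKO and 7.14 FPKM in XRRb_XaKO cells (log2 change -2.81), and 2.37 FPKM in XRRc_XiKO and 0.206 FPKM in XRRc_XaKO cells (2.02). Each group is 1 merged value, and the difference between the 2 changes was not tested.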

How the results depend on the processing

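The changes of the 4 members were recomputed with pseudocounts of 0.1 and 1, no filter, a filter of 5 FPKM, scaled columns, centred changes and Xa plus Xi FPKM. Of 228 alternative values, 224 stayed on the same side of the size rule, and 0 of the changes past it reversed. The filters decide only whether a member is counted as tested. Their values, 36 with no filter and 12 with 5 FPKM, therefore equal the main ones by construction. The 36 values of Xa plus Xi FPKM could hardly differ either, because 44 of the 48 Xi values were 0. Changes short of it did change sign for Tspan7, in XRR_KO against XRRa_KO (-0.10, with 0.08 scaled and 0.14 centred), in the Rad21 pair (-0.29, with 0.03 scaled) and in the Ctcf pair (0.10, with -0.15 scaled and -0.14 centred). With a pseudocount of 1, Timp1 no longer passed in XistpA against WT (-0.98) or in the Rad21 pair (0.71), so that 1 member passed for Rad21. For XRRb_XaKO against XRRc_XaKO, Timp1 passed with a pseudocount of 0.1 (-1.31) and with centring (-1.04), which made 2 members past. A filter of 5 FPKM left 1 or 2 members tested, of which 0 passed in 8 comparisons and 1, Fhl1, in the Ctcf pair. By mean absolute difference in place of correlation, the gene nearest to Itm2a was Rnf128, to Fhl1 Fam3a, to Timp1 Gpc3 and to Tspan7 Flna. No paired analysis was possible because the columns are merged over replicates, and leaving out single replicates was not run for the same reason. FPKM gives no read total, so values well below 1 FPKM have unknown precision, and a listed 0 can be a failed estimate.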

Other observations

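Among the 233 genes tested in all tables, 4933402E13Rik passed the size rule on Xa in 7 of the 9 comparisons, and Gpc3 and Tsix in 5 each. Tsix overlaps Xist on the other strand, and the libraries keep no strand.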
